A study of Homo sapiens with 6 samples.

Results

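The genes described here are the ligands of the TGF-beta superfamily, the proteins that hold, cut or block these ligands, their receptors, and the SMAD proteins that carry the signal to the nucleus. They were picked by name, from a list of 47 gene symbols that was drawn up with earlier results of these data known, and all 47 have a row among the 27009 genes of the table. RNA sequencing was performed on 6 libraries of cells labelled Hep3B, a human liver cancer line, that no longer carry a working PD-L1 gene. Of these, 3 libraries came from cells with the empty vector and 3 from cells with nPD-L1, a mutated PD-L1 that resides in the nucleus. The comparison asked which transcripts differ between these groups.

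All 6 libraries share the PD-L1 knockout, also those with the empty vector. No library carried wild-type PD-L1, so location in the nucleus cannot be told apart from the presence of a mutated PD-L1. nPD-L1 was carried by the lentiviral vector pCDH-CMV-Puro, under the constitutive CMV promoter, in infected cells that were selected with an antibiotic. The labels do not say whether libraries of a group came from separate cultures or clones, and p-values therefore measure the spread between these libraries, which may be technical.

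Ligands of this superfamily are secreted dimers that bring a pair of type II receptors together with a pair of type I receptors, whereupon the type II kinase phosphorylates the type I kinase. TGF-betas, activins and NODAL mostly signal through SMAD2 and SMAD3, BMPs through SMAD1, SMAD5 and SMAD9, and both branches share SMAD4. In liver the pathway is known for growth arrest of hepatocytes, for fibrosis and, in its BMP branch, for control of iron through hepcidin.

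Values are scaled reads, that is, reads counted on a gene divided by a size factor of its library. They summed to between 18082200 and 19682100 per library, and the 4 libraries whose whole reads were recovered held 17427519 to 22253295 reads on genes. The defining markers were at odds with the label. Of the 8 liver markers, ALB, APOA1, APOA2 and TTR did not exceed 2.89 scaled reads in any library, and SERPINA1 lay between 7.91 and 41.4. AFP and GPC3 had no row among the genes analysed here, so no level is given for them. The other marker, HNF4A, a liver-enriched transcription factor, had 19.2, 11.3 and 6.24 scaled reads in vector replicates 1, 2 and 3 and 51.3, 51.6 and 33.8 in nPD-L1 replicates 1, 2 and 3, and passed the test (log2 fold change 1.91, limma adjusted p = 0.0232). Among genes looked up after their values were seen, the fibrinogen genes were well expressed. FGA had 1861 to 3286 scaled reads, FGB 962 to 1540 and FGG 658 to 1129. By contrast APOB, AHSG and TF, which also encode liver plasma proteins, did not exceed 3.39. The epithelial keratin KRT8 had 31077 to 39522 and KRT7, a keratin known from bile ducts, had 24578 to 37356. Of 5 endothelial and 5 leukocyte markers, 3 of each had a row, and these did not exceed 5.65. Of 5 fibroblast markers 2 had a row, of which LUM lay between 99.9 and 182 and PDGFRB did not exceed 8.31. CD274, the PD-L1 gene, had 28.3, 38.4 and 47.8 scaled reads in vector and 16.8, 19.2 and 30.9 in nPD-L1, so it was not higher where PD-L1 had been introduced. Whether reads of the construct were counted on this gene is not given in the sources used here. In the RNA data every direction below therefore rests on the labels, the cells are called cells labelled Hep3B, and the part that cell identity plays in these results was not tested.

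Differences were tested with limma on log2(scaled reads + 1) across the 15076 genes with at least 10 scaled reads in at least 3 libraries, and calls were made where p adjusted by the Benjamini-Hochberg method was under 0.05. The constant added before the log shrinks the fold changes of low genes, but a single low library can widen them. In bulk RNA, fewer cells with a transcript and less of it per cell cannot be told apart.

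BMP2, the BMP antagonist NOG, the activin-binding protein FSTL3, the BMP type II receptor BMPR2, the type I receptors TGFBR1 and ACVR1, and LEFTY2 were higher in the libraries labelled nPD-L1, and the TGF-beta type II receptor TGFBR2 was lower. Of the 47 members, 39 were high enough to test. The 7 called higher were 17.9% of the members tested, where 4.04% of all genes tested were called higher, and the 1 called lower was 2.56%, where 0.922% of all genes were called lower. LEFTY2 had 0 scaled reads throughout vector and entered the test through the nPD-L1 libraries alone, so it had to differ, and 6 of 38 members were called higher without it. NOG too met that minimum only with the nPD-L1 libraries. Counted over the 35 members that reached 10 scaled reads in every vector library, 5 were called higher and 1 lower. The share of all genes called under that filter was not computed. Under the stricter filter of 10 scaled reads in all 6 libraries, 5 members were called higher and 1 lower. Of all 13550 genes tested under it, 537 were called higher and 128 lower. The other 31 members tested were not called, and 27 of them had log2 fold changes within 0.5 of 0. The median log2 fold change of the members tested was 0.09, also with LEFTY2 at its lower bound, beside −0.02 for all genes tested, and 23 were positive and 16 negative. The groups did not overlap for 11 higher members of the 39, where 12.0% of all genes tested lay entirely higher. They did not overlap for 4 lower members, where 8.54% lay entirely lower. The 11 include LEFTY2, whose groups had to differ, and NOG, which met the minimum only with the nPD-L1 libraries.

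**Figure D1:**
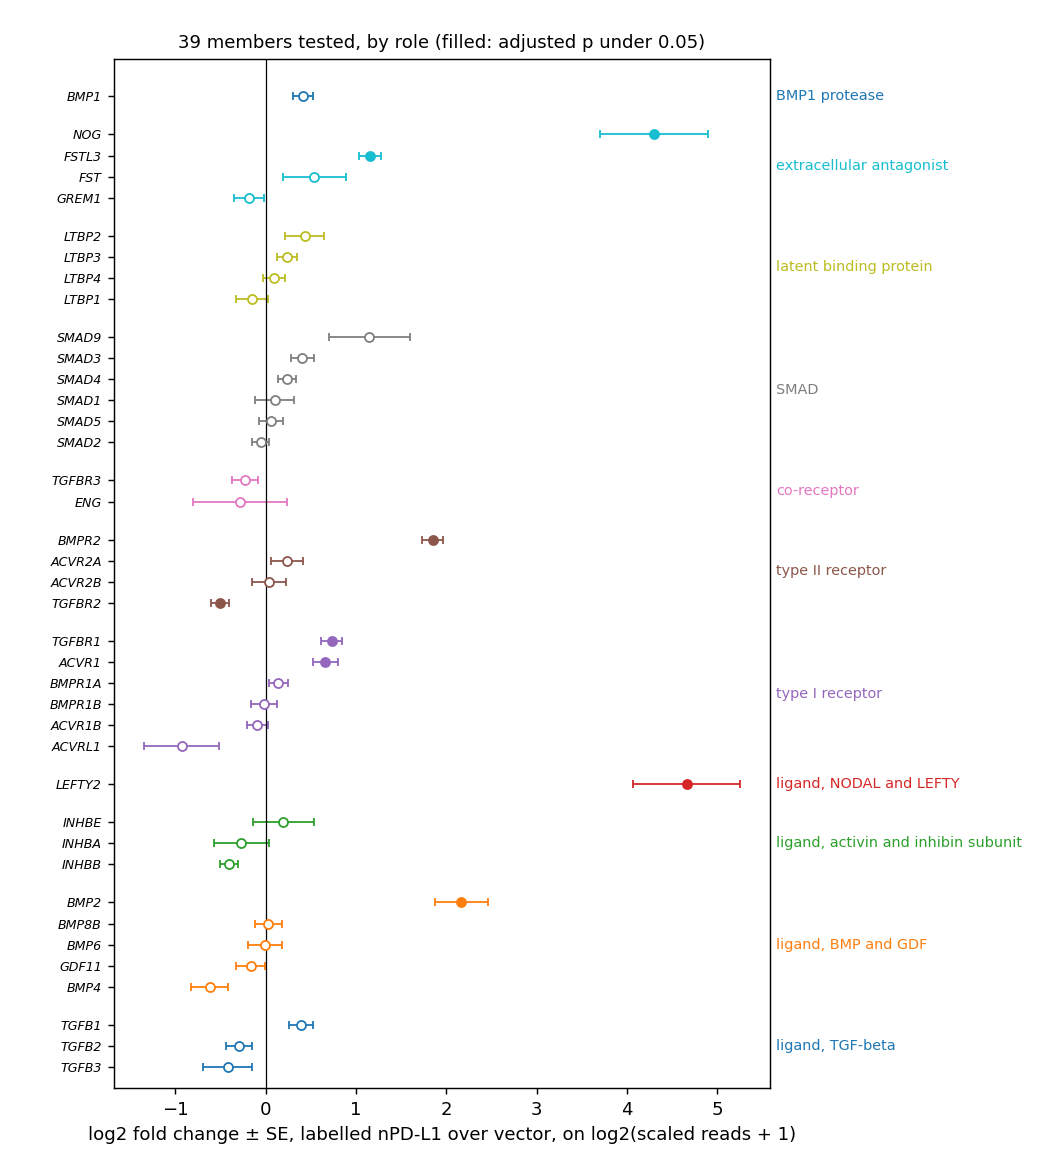
The 39 members tested are drawn by role, with the log2 fold change of the libraries labelled nPD-L1 over vector on log2(scaled reads + 1) along the horizontal axis and bars of 1 SE from limma, 3 libraries per group. Filled points passed an adjusted p of 0.05, 7 to the right of 0 and TGFBR2 to the left at −0.50, while LEFTY2 has a position that depends on the pseudocount and all 6 SMADs and all 4 latent binding proteins are open points.

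None of the 3 TGF-beta ligands passed the test in limma, edgeR or DESeq2, and 1 did, higher, at an unadjusted p under 0.05, where 9.53% of all genes tested were higher and 4.71% lower. TGFB1, the isoform most cells secrete, had 2633, 3457 and 2639 scaled reads in vector and 4146, 3924 and 3325 in nPD-L1. Vector replicate 2 stood above nPD-L1 replicate 3, so the groups overlapped. The log2 fold change was 0.39 (SE 0.13, limma adjusted p = 0.166), with a 95% interval of 0.10 to 0.68, and TGFB1 was called without vector replicate 2 (log2 fold change 0.52, adjusted p = 0.0029), with adjusted p running from 0.0029 to 1.0 over the alternatives. Per kb of gene model TGFB1 was the most abundant ligand among the 47 members, at a mean of 899 scaled reads per kb in vector and 1173 in nPD-L1. TGFB2 was at 135 and 110 per kb and TGFB3 at 7.80 and 5.82, with log2 fold changes of −0.29 and −0.42 that missed the threshold.

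BMP2 was the ligand of the BMP group that rose. BMP2 induces bone and cartilage and acts through BMPR2 with BMPR1A or BMPR1B, and the gene (ENSG00000125845) lies on chromosome 20 from 6767664 to 6780280 of GRCh38. BMP2 had 18.2, 27.1 and 13.5 scaled reads in vector and 94.1, 94.1 and 77.2 in nPD-L1. Every nPD-L1 library was above every vector library. The mean was 4.51-fold higher, with a log2 fold change of 2.17 (SE 0.29, limma adjusted p = 0.00132). BMP4, its close relative, went the other way in level without passing the test, at 124, 92.6 and 94.6 scaled reads in vector and 74.0, 66.8 and 59.8 in nPD-L1. Its groups did not overlap, and its log2 fold change was −0.62 (SE 0.20, limma adjusted p = 0.153).

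BMP6, which drives hepcidin in liver, was the most abundant BMP per kb in both groups, at 62.1 scaled reads per kb in vector and 61.9 in nPD-L1. Its log2 fold change was −0.01, with a 95% interval of −0.43 to 0.41. BMP8B and GDF11 had log2 fold changes of 0.03 and −0.16. BMP7 and BMP8A were too low to test, and BMP8A and BMP8B are near-identical copies between which reads may be split.

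No activin or inhibin subunit was called by limma, edgeR or DESeq2, and 1, INHBB, was called lower at an unadjusted p under 0.05. Among all genes tested, limma called 4.04% higher and 0.922% lower, and 9.53% and 4.71% at that unadjusted p. INHBB, which forms activin B, was the most abundant, at 306 scaled reads per kb in vector and 232 in nPD-L1. It had 979, 983 and 981 scaled reads in vector and 688, 811 and 727 in nPD-L1. The vector libraries were nearly level and all above the nPD-L1 libraries. The log2 fold change was −0.41 (SE 0.10), and the limma adjusted p of 0.0521 lay just outside the threshold. INHBB was called without vector replicate 2 (0.0271), with upper-quartile factors (0.0428) and with the gene length trend removed (0.0308), in a range of 0.0212 to 0.546 over the alternatives. INHBA, the subunit of activin A, lay between 27.1 and 52.0 scaled reads and INHBE between 15.8 and 32.3, with log2 fold changes of −0.27 and 0.19 that missed the threshold. The inhibin subunit INHA and INHBC did not exceed 2.52 scaled reads.

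LEFTY2, an inhibitor of NODAL that competes for its receptors (ENSG00000143768, chromosome 1 from 225936598 to 225941489), had no read in any vector library and 24.4, 24.3 and 24.1 scaled reads in nPD-L1 replicates 1, 2 and 3. The nPD-L1 libraries were level with each other. Set against the largest floor of a vector library, 3 reads or 3.39 scaled reads, the mean was at least 7.16-fold higher, a bound that covers counting error only, and the limma adjusted p was 0.000834. The neighbouring copy LEFTY1 had 0 throughout vector and 4.20, 7.08 and 0 in the nPD-L1 libraries, and reads shared between these near-identical genes could have been split by the counting. NODAL itself, at 2.02 to 5.88 scaled reads, was too low to test.

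Latent binding proteins tether newly made TGF-beta to the matrix. None of the 4 was called by limma, edgeR or DESeq2 or at an unadjusted p under 0.05 (0 of 4). Among all genes tested, limma called 4.04% higher and 0.922% lower, and 9.53% and 4.71% at that unadjusted p. LTBP4 was the most abundant per kb, at 160 in vector and 170 in nPD-L1. LTBP3 had the lowest adjusted p of the 4, with 1494, 1472 and 1298 scaled reads in vector and 1880, 1495 and 1656 in nPD-L1. Its lowest nPD-L1 library was just above its highest vector library, and the log2 fold change was 0.24 (SE 0.11, limma adjusted p = 0.394). LTBP1 and LTBP2 had log2 fold changes of −0.15 and 0.43 with overlapping groups. BMP1, a metalloprotease that releases ligands by cutting matrix proteins and chordin, had 469, 421 and 494 scaled reads in vector and 648, 590 and 604 in nPD-L1. All nPD-L1 libraries were above all vector libraries, but the log2 fold change of 0.41 (SE 0.11) missed the threshold at a limma adjusted p of 0.0754.

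NOG had the largest fold change of the members with reads in both groups. It encodes noggin, which binds BMP2 and BMP4 and keeps them from their receptors, and the gene (ENSG00000183691) lies on chromosome 17 from 56593699 to 56595590. It had 10.1, 1.13 and 10.4 scaled reads in vector and 181, 127 and 86.8 in nPD-L1. The lowest nPD-L1 library was far above the highest vector library, although the nPD-L1 libraries spread widely. The mean was 18.3-fold higher, with a log2 fold change of 4.30 (SE 0.59, limma adjusted p = 0.00149). NOG reached 10 scaled reads in vector replicates 1 and 3 only, so it entered the test through the nPD-L1 libraries where it is high, and it was not tested when 10 was required in all 6 libraries. Vector replicate 2 holds a single read of this gene, and without that library its log2 fold change was 3.50 (adjusted p = 1.75e-06), and over the alternatives that tested it adjusted p ran from 1.42e-08 to 0.0257.

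FSTL3, a secreted relative of follistatin that binds activins and myostatin, was the most abundant antagonist among the members. The gene (ENSG00000070404) lies on chromosome 19 from 676365 to 683399, and it had 1452, 1393 and 1672 scaled reads in vector and 3835, 3294 and 2971 in nPD-L1. The groups did not overlap. The mean rose 2.24-fold, with a log2 fold change of 1.16 (SE 0.12, limma adjusted p = 0.000197). Per kb, FSTL3 exceeded INHBB, the main activin subunit, by a ratio of 1.60 ± 0.157 in vector and 4.78 ± 0.905 in nPD-L1 (SD, n = 3 each, a description with no test).

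Follistatin itself, FST, had 79.7, 58.7 and 187 scaled reads in vector and 161, 127 and 132 in nPD-L1. Vector replicate 3 was above all nPD-L1 libraries while the other two were below them. The log2 fold change was 0.54 (SE 0.35, limma adjusted p = 0.568). Without vector replicate 3 it was 1.02 and FST was called (adjusted p = 0.0185), with adjusted p between 0.0185 and 1.0 over the alternatives. GREM1, a BMP antagonist of the DAN family, had 253 to 411 scaled reads with overlapping groups (log2 fold change −0.18), and CHRD, chordin, was too low to test, with a largest value of 11.1.

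**Figure D2:**
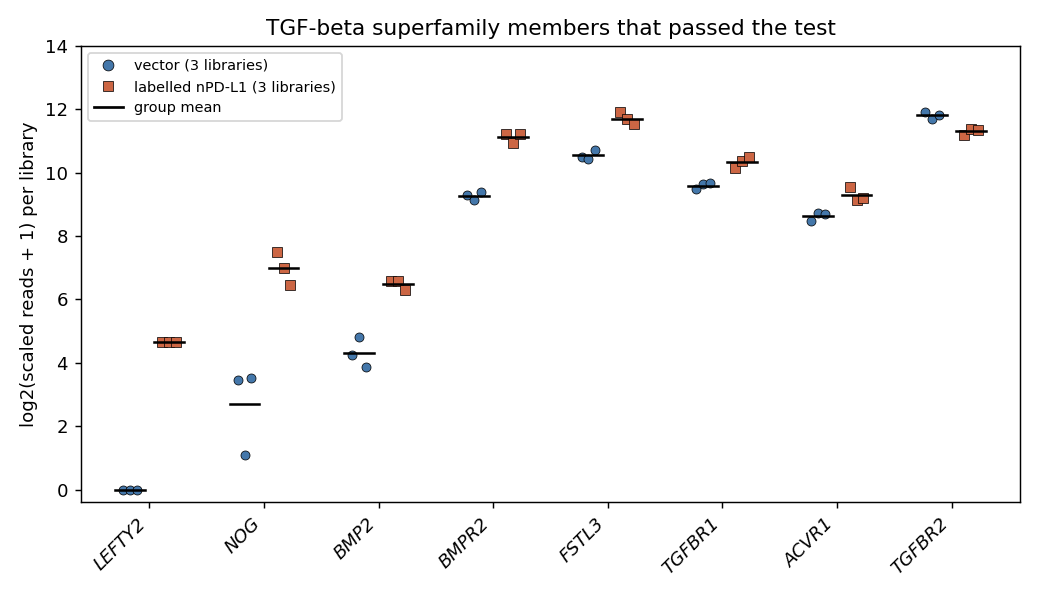
Each point is the log2(scaled reads + 1) of 1 library for the 8 members that passed the test, circles for vector and squares for libraries labelled nPD-L1, with a line at each group's mean (3 libraries each). No member has overlapping groups, LEFTY2 is at 0 in every vector library, and TGFBR2 is the only member whose squares lie below its circles.

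Of the 7 type I receptors 2 rose and none fell in limma, and of the 4 type II receptors 1 rose and 1 fell. Over all genes tested, limma called 4.04% higher and 0.922% lower, and 9.53% and 4.71% at an unadjusted p under 0.05. On the 4 libraries with recovered reads edgeR and DESeq2 each called 1 type II receptor, higher, and no type I receptor, and at an unadjusted p under 0.05 limma called 1 type I receptor, ACVRL1, lower. BMPR2 is the type II receptor for BMPs (ENSG00000204217, chromosome 2 from 202376936 to 202567751), and it had 634, 557 and 673 scaled reads in vector and 2385, 1963 and 2379 in nPD-L1. The lowest nPD-L1 library was well above every vector library. The mean was 3.61-fold higher, with a log2 fold change of 1.85 (SE 0.12, limma adjusted p = 5.65e-06), the lowest adjusted p of the members. A processed pseudogene, AC073410.1, overlaps BMPR2 on the same strand, with means of 0 in vector and 3.34 scaled reads in nPD-L1.

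TGFBR2, the type II receptor that binds TGF-beta (ENSG00000163513, chromosome 3 from 30606502 to 30694142), had 3897, 3288 and 3648 scaled reads in vector and 2335, 2662 and 2630 in nPD-L1. All nPD-L1 libraries were below all vector libraries. The vector mean was 1.42-fold the nPD-L1 mean, with a log2 fold change of −0.50 (SE 0.10, limma adjusted p = 0.0171). This call was lost without vector replicate 1 (0.128) or without nPD-L1 replicate 1 (0.103), 2 (0.0635) or 3 (0.071), and on the 4 libraries with recovered reads (limma 0.402, edgeR 0.416, DESeq2 0.328), with a lowest adjusted p of 0.000633 over the alternatives, while its log2 fold change stayed between −0.57 and −0.44.

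TGFBR1 is the type I kinase that pairs with TGFBR2 (ENSG00000106799, chromosome 9 from 99104038 to 99154192), and it had 715, 793 and 809 scaled reads in vector and 1127, 1307 and 1433 in nPD-L1. The groups did not overlap. The log2 fold change was 0.73 (SE 0.12, limma adjusted p = 0.00356), and the call was lost on the 4 libraries with recovered reads, where limma gave 0.131, edgeR 0.124 and DESeq2 0.0804.

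ACVR1, a type I receptor for BMPs and activins (ENSG00000115170, chromosome 2 from 157736444 to 157875862), had 351, 426 and 414 scaled reads in vector and 745, 565 and 582 in nPD-L1. All nPD-L1 libraries were above all vector libraries, with nPD-L1 replicate 1 the highest. The log2 fold change was 0.66 (SE 0.14, limma adjusted p = 0.0208). The call was lost without vector replicate 1 (0.124), nPD-L1 replicate 1 (0.111) or nPD-L1 replicate 3 (0.0689) and on the 4 libraries with recovered reads (limma 0.204, edgeR 0.178, DESeq2 0.198), with a lowest adjusted p of 0.00318 over the alternatives.

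The BMP type I receptors BMPR1A and BMPR1B, which share ligands with BMPR2, had overlapping groups and log2 fold changes of 0.14 (95% interval −0.10 to 0.37) and −0.02 (−0.35 to 0.30). ACVR1B, the activin type I receptor, had −0.09 (−0.34 to 0.16). ACVRL1, known from endothelium, was low, at 29.3, 44.0 and 17.7 scaled reads in vector and 10.9, 20.2 and 13.5 in nPD-L1. Its groups overlapped, with a log2 fold change of −0.93 (SE 0.41, limma adjusted p = 0.338), and ACVR1C did not exceed 3.36 scaled reads. The activin type II receptors ACVR2A and ACVR2B were not called either. ACVR2A had 148, 112 and 113 scaled reads in vector and 131, 154 and 151 in nPD-L1, which overlap (log2 fold change 0.23, SE 0.18, limma adjusted p = 0.633), and ACVR2B had 244 to 394 with a log2 fold change of 0.04.

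Per kb of gene model, TGFBR2 led the type II receptors in both groups, at 768 scaled reads per kb in vector and 540 in nPD-L1, followed by BMPR2 at 52.2 and 188, ACVR2B at 21.7 and 21.8 and ACVR2A at 18.4 and 21.5. The last pair did not differ beyond their spread. TGFBR2 per kb was 7.93, 6.03 and 6.56 times TGFBR1 in the vector libraries and 3.02, 2.96 and 2.67 times in the libraries labelled nPD-L1. BMPR2 per kb was 0.704, 0.688 and 0.701 times BMPR1A in vector and 2.31, 2.04 and 2.52 times in nPD-L1. By this measure of RNA, BMPR2 was below BMPR1A in every vector library and above it in every nPD-L1 library. The length used is that of the gene model, the length of the transcripts expressed was not measured, and protein levels were not measured here. BMPR2 over TGFBR2 went from 0.0681 ± 0.00445 to 0.351 ± 0.0564 (SD, n = 3 each). These ratios follow from the calls above and carry no test of their own.

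**Figure D3:**
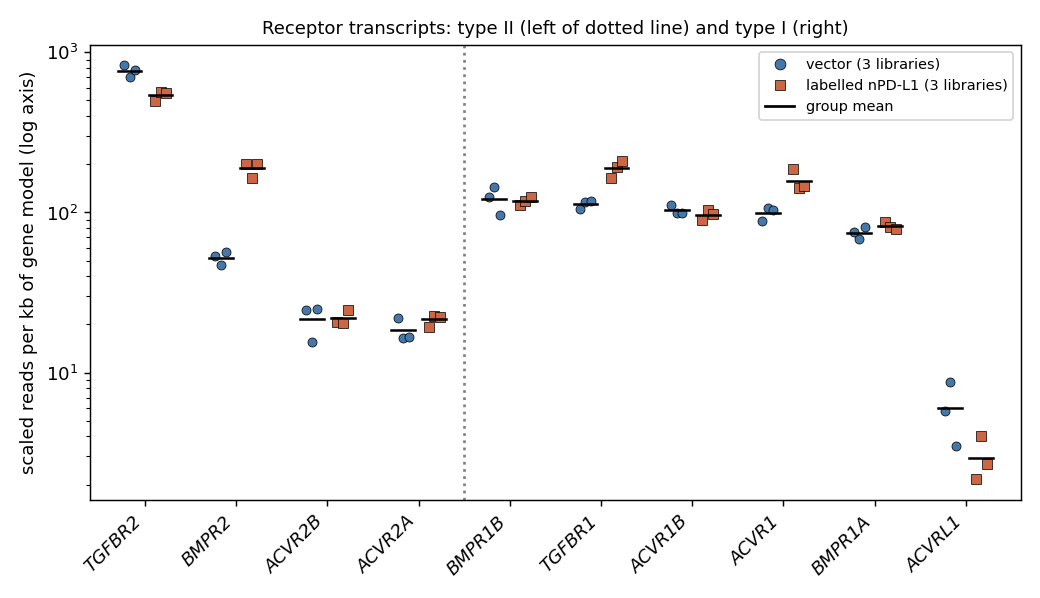
Scaled reads per kb of gene model are drawn on a log axis for the 4 type II receptors and 6 of the type I receptors, ACVR1C being too low to test, with circles for vector, squares for libraries labelled nPD-L1 and a line at each mean of 3 libraries. BMPR2 moves from 52.2 to 188 per kb, to about the level of TGFBR1 in nPD-L1, while TGFBR2 remains the most abundant receptor in both groups.

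The co-receptors present ligand to the signalling receptors, and neither was called by limma, edgeR or DESeq2 or at an unadjusted p under 0.05 (0). Among all genes tested, limma called 4.04% higher and 0.922% lower, and 9.53% and 4.71% at that unadjusted p. TGFBR3, betaglycan, had 377, 303 and 338 scaled reads in vector and 266, 277 and 326 in nPD-L1, with overlapping groups (log2 fold change −0.23, SE 0.14, limma adjusted p = 0.551). ENG, endoglin, lay between 7.91 and 26.0 scaled reads, with a log2 fold change of −0.29.

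Promoter sequence was taken from RefSeq (GRCh38.p14) as windows of 250 bases before and 50 bases after each start, and 39 of the 47 members and 5 of the 8 called members had at least 1 window. BMP2, LEFTY2 and NOG had none. The letters searched, on both strands, were CAGAC (the SMAD box), GGCGCC (a GC-rich SMAD site), GTCTAGAC (the SMAD palindrome) and TGANTCA (an AP-1 site), which share no overlapping match in the windows printed. Of all 35116 windows, 45.3% held CAGAC, 19.2% GGCGCC, 0.202% GTCTAGAC and 7.71% TGANTCA. The windows of the member with the lowest adjusted p, of the antagonist FSTL3 and of the receptor that fell are shown in the direction of the gene, with matches in capitals, because these members moved in the same comparison.
BMPR2, chr2:202376077-202376376, + strand: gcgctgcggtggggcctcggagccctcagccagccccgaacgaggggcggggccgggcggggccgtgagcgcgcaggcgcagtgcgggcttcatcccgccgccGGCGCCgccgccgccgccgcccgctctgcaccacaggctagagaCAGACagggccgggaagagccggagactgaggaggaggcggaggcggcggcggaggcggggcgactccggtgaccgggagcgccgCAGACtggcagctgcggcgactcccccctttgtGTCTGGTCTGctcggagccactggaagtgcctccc
FSTL3, chr19:676142-676441, + strand: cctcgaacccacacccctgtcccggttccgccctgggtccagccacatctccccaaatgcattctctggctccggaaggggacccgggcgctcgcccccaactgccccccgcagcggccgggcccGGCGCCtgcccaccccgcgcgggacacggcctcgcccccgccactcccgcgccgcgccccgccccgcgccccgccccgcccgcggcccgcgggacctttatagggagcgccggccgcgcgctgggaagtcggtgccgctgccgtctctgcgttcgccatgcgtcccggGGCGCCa
TGFBR2, chr3:30606351-30606650, + strand: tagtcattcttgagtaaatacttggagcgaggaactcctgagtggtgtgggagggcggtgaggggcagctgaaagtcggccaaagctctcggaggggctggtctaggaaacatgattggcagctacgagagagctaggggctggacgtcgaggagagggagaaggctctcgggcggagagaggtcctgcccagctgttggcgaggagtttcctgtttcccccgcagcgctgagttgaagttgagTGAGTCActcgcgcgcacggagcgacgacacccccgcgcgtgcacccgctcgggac
The BMPR2 window held 4 matches to the SMAD box, a number that 0.57% of all windows reach or pass. It also held 1 match to the GC-rich SMAD site, at a GC content of 76.7%. The FSTL3 window held 2 matches to the GC-rich site, which 4.35% of windows reach or pass, at a GC content of 78.7%, and no SMAD box. The TGFBR2 window held 1 AP-1 site and neither SMAD motif, and the second TGFBR2 window, which begins upstream of it, held none of these letters. TGFBR1 and ACVR1, called as well, had several windows each that are not shown, with at most 2 SMAD boxes in any of them. A TGFBR1 window held 2 matches to the GC-rich site, as many as the FSTL3 window. An ACVR1 window held 1 match to the GC-rich site, and another ACVR1 window held 1 AP-1 site. Of the 39 members with a window, 22 held CAGAC in at least 1. Members can have several windows, so that count is not comparable with the 45.3% of single windows. The median GC content of all windows was 58.7%. A match describes the letters only and is not a binding site.

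No SMAD that carries or shares the signal passed the test in limma, edgeR or DESeq2, and 3 of the 6 did, all higher, at an unadjusted p under 0.05, beside 9.53% of all genes tested. SMAD3, the TGF-beta and activin branch's transcription factor, was the most abundant of the 6 per kb, at 571 scaled reads per kb in vector and 749 in nPD-L1. It had 5384, 4283 and 5941 scaled reads in vector and 6929, 6579 and 6973 in nPD-L1. All nPD-L1 libraries were above all vector libraries. The log2 fold change was 0.40 (SE 0.13, limma adjusted p = 0.12), and SMAD3 was called without vector replicate 3 (0.51, adjusted p = 0.0352) and with no filter on low values (0.0423), in a range of 0.0207 to 0.671.

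SMAD4, the shared partner, also had groups that did not overlap, at 816, 802 and 841 scaled reads in vector and 939, 924 and 1033 in nPD-L1 (log2 fold change 0.23, SE 0.10, limma adjusted p = 0.306). SMAD2, SMAD5 and SMAD1 had overlapping groups, with log2 fold changes of −0.06 (95% interval −0.26 to 0.15), 0.06 (−0.23 to 0.35) and 0.10 (−0.38 to 0.58). SMAD9, of the BMP branch, was low, with 8.07, 9.03 and 20.8 scaled reads in vector and 18.5, 38.4 and 27.0 in nPD-L1, and its log2 fold change of 1.15 (SE 0.45) missed the threshold (adjusted p = 0.255).

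The rest of the pathway was read from lists written with results of these data known, so their counts are descriptions. They stand beside 4.04% of all genes tested that limma called higher and 0.922% that it called lower. Of 42 other extracellular proteins, 28 had a row and 17 were tested, of which 2 rose, 1 fell and 14 were not called in limma, with a median log2 fold change of 0.09. FURIN, the convertase that cuts TGF-beta and BMP precursors, had 1273, 1457 and 1286 scaled reads in vector and 5301, 5295 and 4864 in nPD-L1 (log2 fold change 1.95, limma adjusted p = 1.25e-06). BAMBI, a pseudoreceptor that lacks the kinase and is itself a target of the pathway, had 329, 364 and 345 in vector and 1167, 1257 and 1131 in nPD-L1 (1.77, 3.71e-06). GDF15, a distant member of the ligand family that signals through another receptor, fell from 4889, 5270 and 3427 to 2052, 2021 and 1494 (−1.28, 0.00131). Per kb it was above TGFB1 in vector, at 2170 against 899 scaled reads per kb, and below it in nPD-L1, at 889 against 1173. The groups of these 3 genes did not overlap.

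Of 23 intracellular regulators, 22 were tested, 8 rose, none fell (0 also at an unadjusted p under 0.05 and in edgeR or DESeq2) and 14 were not called, with a median log2 fold change of 0.31. Over all genes tested, limma called 4.04% higher and 0.922% lower. The SMAD corepressors SKIL and SKI had log2 fold changes of 3.83 and 2.41, and the inhibitory SMADs SMAD7 and SMAD6 had 2.21 and 1.0. SMAD7, which blocks type I receptors, went from 608, 499 and 634 scaled reads in vector to 2767, 2640 and 2634 in nPD-L1. PMEPA1, which sequesters SMAD2 and SMAD3, had 1.83, and the ubiquitin ligases SMURF2 and SMURF1 had 1.11 and 0.74. SMURF1 was not called on the 4 libraries with recovered reads in limma (adjusted p = 0.0714) or edgeR (0.0802). PPM1A, a SMAD phosphatase, had 0.43 and lost its call when vector replicate 1 (adjusted p = 0.128) or nPD-L1 replicate 1 (0.0802), 2 (0.134) or 3 (0.11) was left out, with the gene length trend removed (0.217) and on those 4 libraries (up to 0.771). Of the uncalled regulators, the corepressors TGIF1 and TGIF2 had 0.31 each and the ubiquitin ligase NEDD4L had −0.12, named here after their values were seen (limma adjusted p = 0.129, 0.308 and 0.651).

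Of 27 genes known as SMAD targets, 26 had a row and 22 were tested. Of these 13 rose, beside 4.04% of all genes tested, none fell in limma, edgeR or DESeq2 (1 at an unadjusted p under 0.05, MSX1) and 9 were not called, with a median log2 fold change of 1.45, and the list was chosen with the largest changes known, so the count is no independent evidence of direction. The 10 with the lowest adjusted p were JUNB (4.62), PDGFB (5.54), BHLHE40 (2.17), HEY1 (3.48), COL1A1 (2.84), ID3 (2.58), ID1 (1.67), CDKN1A (1.22), SNAI2 (1.84) and SNAI1 (1.97), each given as a log2 fold change. COL1A1, a fibrillar collagen gene known as a TGF-beta target, had 82.8, 63.2 and 49.9 scaled reads in vector and 465, 445 and 487 in nPD-L1. ID1, the classic BMP target, had 752, 946 and 894 in vector and 3212, 2825 and 2281 in nPD-L1. Genes known as targets of either branch were thus among those that rose, but not all targets rose. HAMP, the hepcidin gene, had 2.08 scaled reads in vector replicate 3 and 0 in every other library, too low to test. The 9 targets that missed the threshold had smaller or less certain log2 fold changes. These were 1.06 for TAGLN, 0.53 for TGFBI, 0.47 for ATOH8, 0.26 for FN1, 0.24 for ID2 and 0.10 for MSX2. TGM2 had 0.08, HMGA2 −0.16 and MSX1 −0.40.

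**Figure D4:**
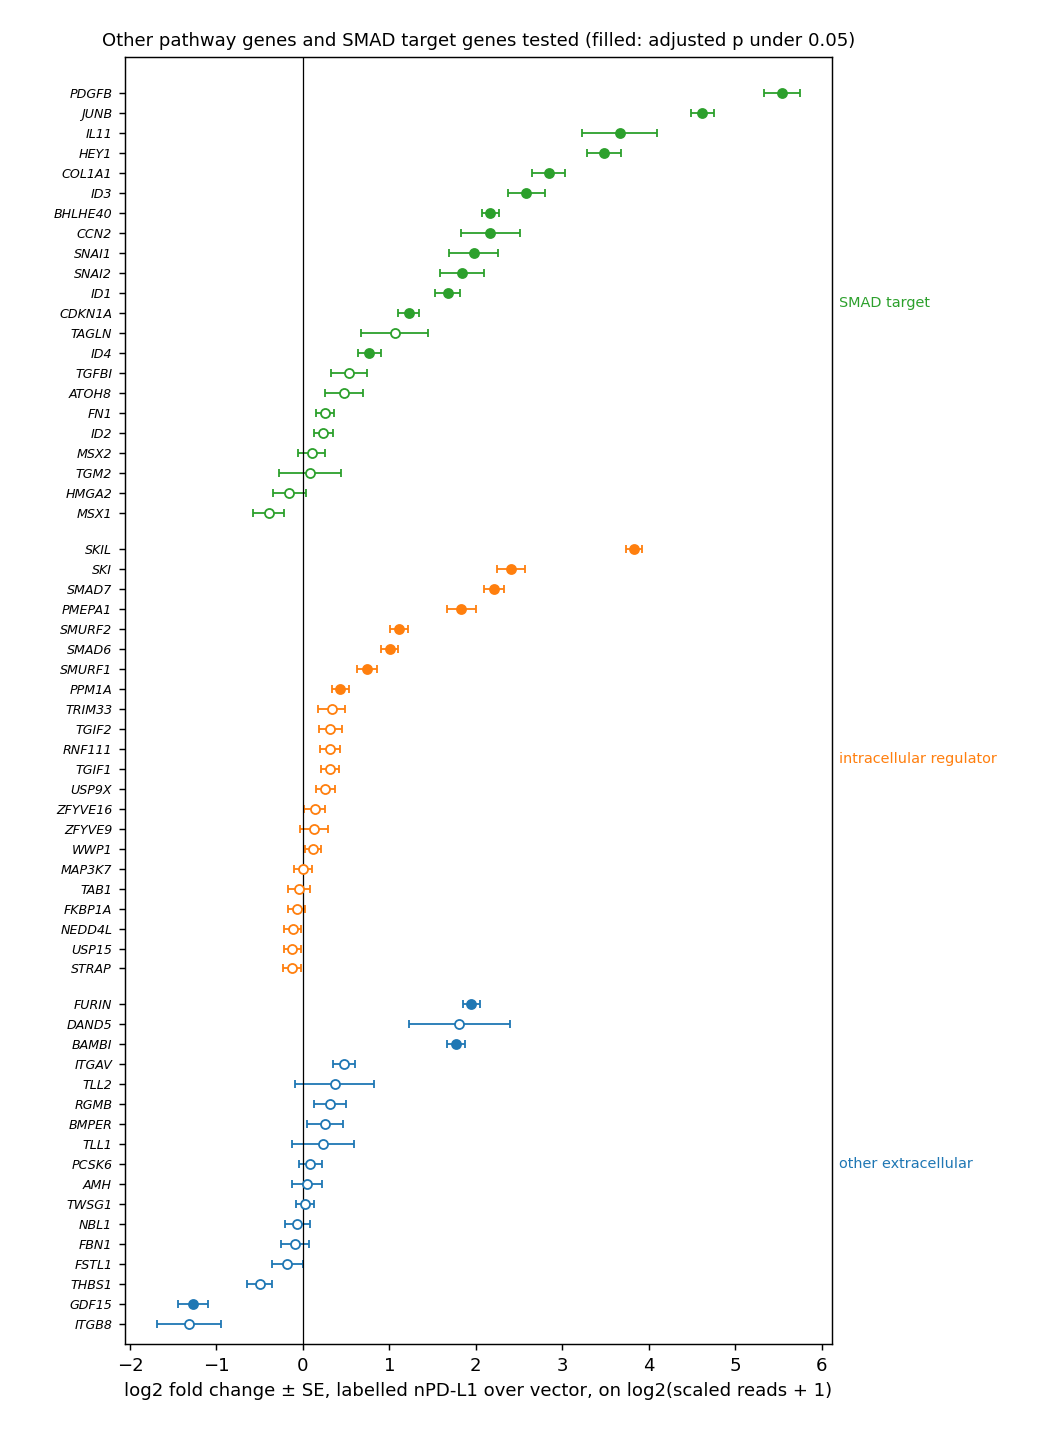
The 17 other extracellular proteins, 22 intracellular regulators and 22 SMAD targets tested are drawn with their log2 fold change (libraries labelled nPD-L1 over vector, on log2(scaled reads + 1)) and bars of 1 SE from limma. Filled points passed an adjusted p of 0.05, and GDF15 at −1.28 is the only filled point left of 0.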

How the data were processed

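RNA from 6 libraries of PD-L1-knockout cells labelled Hep3B, 3 with vector and 3 with nPD-L1, was sequenced and processed by a company from NEBNext Ultra libraries. That kit does not mark strand, so reads of a gene and an antisense partner cannot be told apart. The submitters' processing notes name CASAVA, HISAT2 version 2.0.5 and hg38, and the read counter and annotation are not given in the sources used here. The values deposited by the authors are a signal per gene and library, reads divided by a size factor of that library, although presented as raw. In all 6 libraries 100% of the nonzero values were whole multiples of the smallest value, within 0.1 of a read. Reads were recovered for 4 libraries, all but vector replicate 1 and nPD-L1 replicate 2. In vector replicate 1 and nPD-L1 replicate 2 the smallest value is 1.01, so near 1 that low values alone do not tell scaled from unscaled reads. Their values were nevertheless 100% whole multiples of it, so their reads could have been recovered as well. Both were left out of the count tests and of the limma fit set beside them, which leaves those fits with fewer libraries than the data allow. The deposited table also holds the authors' own log2 fold changes, p-values and adjusted p-values, which were not used.

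limma version 3.58.1 (R version 4.3.3) was fitted to log2(value + 1) with trend and robust moderation, on genes that reached 10 in 3 or more libraries, with no covariate. Group sizes of 3 set the precision for all but low genes. As alternatives, the recovered reads of 4 libraries were given to edgeR version 4.0.16 and to DESeq2 version 1.42.0. The script was tested on simulated data. Levels between genes were compared per kb of the gene length in the table. Full values are given for each member called and for the uncalled member with the lowest adjusted p of each role, and levels for the most abundant member per kb. Of the other lists, the called genes are named, at most the 10 with the lowest adjusted p. A few single genes were left out and are not reported here. The members and all lists were chosen with earlier results of these data known. Other scalings, pseudocounts of 0.1 and 10, filters, thresholds, moderation, a gene length trend, a replicate block and each library left out were also tried.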

Additional observations from a re-analysis of the deposited data

How the results depend on the processing

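The 7 higher members became 12 at an unadjusted p under 0.05 and 4 in limma on 4 libraries, and 5 to 9 with each library left out in turn. The 1 lower member became 2 with upper-quartile factors and with the gene length trend removed, 4 at an unadjusted p under 0.05, and 0 with a 2-fold threshold and in limma, edgeR and DESeq2 on 4 libraries. With each library left out it ranged from 0 to 2. The other pathway genes called went from 11 to 19 at an unadjusted p under 0.05, and the SMAD target count of 13 stayed between 10 and 17. The fits on 4 libraries have fewer samples, and for the other changes the cause was not tested. BMP2, BMPR2, NOG and FSTL3 kept their calls wherever tested. Of 67 genes followed under each alternative, among them the 39 members tested, 9 changed sign, all members that were not called. With the gene length trend removed the log2 fold changes were 0.0081 for BMP6, −0.023 for BMP8B, −0.12 for ACVR2B, −0.057 for SMAD5 and −0.0077 for LTBP4. BMP6 was at 0.00057 with TMM factors and BMPR1B at 0.0030 in limma on 4 libraries. With each library left out, BMP6 ran from −0.14 to 0.14, BMP8B from −0.052 to 0.11, INHBE from −0.11 to 0.38, BMPR1B from −0.18 to 0.12, ACVR2B from −0.19 to 0.15, SMAD1 from −0.16 to 0.25, SMAD5 from −0.078 to 0.16 and LTBP1 from −0.34 to 0.040. NOG could not be tested with 10 scaled reads required in all 6 libraries. LEFTY2 could not be tested in limma on 4 libraries, with 10 scaled reads required in all 6 libraries or without any 1 of the nPD-L1 libraries.

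Same-numbered libraries deviated from their group means with correlations of −0.01, 0.23 and 0.13. Vector replicates 2 and 3 correlated best with the nPD-L1 library of their own number, and vector replicate 1 with nPD-L1 replicate 3 (0.07). The labels do not say whether a number marks a shared batch, and pairing was not tested. With the number as a replicate block, 10 members were higher (TGFB1, SMAD3 and BMP1 added) and 2 lower (INHBB added), and over all genes 927 were higher and 258 lower. Without the block these were 609 and 139, and they became 331 to 791 and 76 to 242 with each library left out, 229 and 52 when limma was run on 4 libraries (edgeR 248 and 52, DESeq2 314 and 83), 306 and 68 with a 2-fold threshold, and 1436 and 710 at an unadjusted p under 0.05.

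The 8 members too low to test did not exceed 11.1 scaled reads in any library, and whether depth or low expression set these values was not tested. Reads of near-identical copies, low values in single libraries and the mismatch of cell markers with the label limit the rest.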
